A study of Mus musculus with 5 samples.

Results

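The interferon-stimulated genes are a list of 37 mouse genes known to be induced by interferons, taken by name. A gene was measured where the Mouse Genome 430 2.0 array has a probe set (a group of probes for one transcript) annotated with its symbol alone. This held for 35 of the 37 genes, among 18193 genes on the array. Ifi44 was not analysed here, and the probe set of Isg15 is also annotated to a second gene, so it was given no value. By the interferon that typically induces them, 28 of the measured genes were grouped as type I typical and 7 as type II typical, although many respond to both.

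The genes were measured in RNA of whole esophagus from FVB/N mice carrying CC10-rtTA and tetO-IL-13 transgenes, aged 3 to 4 months. The Dox group (3 arrays) was given a doxycycline diet and the NoDox group (2 arrays) a regular diet, so both groups carry the transgenes. The CC10 promoter is active in club cells of the airway, and the transactivator it drives switches on IL-13, a type 2 cytokine, when doxycycline is present. Doxycycline without the transgenes was not analysed here, so the diet and IL-13 cannot be told apart. Values are the deposited ratios, an array's signal over the mean signal of the 2 NoDox arrays, and ± is the SE of the log2 fold change in the fit over 3 Dox and 2 NoDox arrays. Signal levels are given in steps, the whole units recovered from these ratios, and serve to show how bright a probe set or list was in each array. A sum over a list is scaled between arrays and holds only markers whose level was recovered. Nothing in the labels ties an array to its own animal, and p-values therefore measure the spread between arrays, which may be technical.

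Type I interferons (the alpha and beta proteins) are released by cells that detect foreign nucleic acid, and type II interferon (gamma) is released mainly by T and NK cells. Type I receptors act through JAK kinases on a complex that holds STAT2 and IRF9 and binds the interferon-stimulated response element (ISRE). Signals from the type II receptor act on the gamma-activated site (GAS). IL-13 acts through STAT6, whose preferred site has the same arms as a GAS with one more base between them. The products of interferon-stimulated genes sense or degrade viral RNA, block steps of infection, attack vacuoles that hold pathogens and regulate the response itself.

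The sequences before the start sites of 5 of the genes show these elements. Promoters from RefSeq (GRCm38.p6, 250 bases before to 50 bases after a start) were found for 27 of the 37 genes, as 34 promoters. They were searched on both strands for the ISRE (GAAA, 2 free bases, GAAA), the GAS (TTC, 3 free bases, GAA) and the STAT6 form (TTC, 4 free bases, GAA), and the 190 bases before the start are shown 5′ to 3′ with matches in capitals. Oas1a (minus strand) is the gene with the smallest p among the 35, Igtp (plus) holds an ISRE beside a GAS, Irf1 and Irf8 (plus) hold GAS matches, and Rsad2 (minus) is an ISRE gene whose groups overlapped.
Oas1a (chr5:120907526-120907715): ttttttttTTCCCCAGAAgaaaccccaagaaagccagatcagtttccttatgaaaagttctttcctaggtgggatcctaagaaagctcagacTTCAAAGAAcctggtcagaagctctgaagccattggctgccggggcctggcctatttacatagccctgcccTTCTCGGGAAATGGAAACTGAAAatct
Igtp (chr11:58199366-58199555): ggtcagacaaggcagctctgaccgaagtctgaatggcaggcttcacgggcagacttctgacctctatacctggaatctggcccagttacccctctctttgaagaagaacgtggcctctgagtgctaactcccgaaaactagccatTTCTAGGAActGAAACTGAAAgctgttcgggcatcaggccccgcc
Irf1 (chr11:53769824-53770013): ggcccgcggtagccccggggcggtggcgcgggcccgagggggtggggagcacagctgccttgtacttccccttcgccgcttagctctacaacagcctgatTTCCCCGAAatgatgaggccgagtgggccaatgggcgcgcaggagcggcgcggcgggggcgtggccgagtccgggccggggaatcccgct
Irf8 (chr8:120736168-120736357): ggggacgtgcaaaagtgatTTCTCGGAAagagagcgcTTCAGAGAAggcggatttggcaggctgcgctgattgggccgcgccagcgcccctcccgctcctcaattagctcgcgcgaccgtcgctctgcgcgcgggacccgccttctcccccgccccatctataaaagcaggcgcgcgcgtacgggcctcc
Rsad2 (chr12:26456453-26456642): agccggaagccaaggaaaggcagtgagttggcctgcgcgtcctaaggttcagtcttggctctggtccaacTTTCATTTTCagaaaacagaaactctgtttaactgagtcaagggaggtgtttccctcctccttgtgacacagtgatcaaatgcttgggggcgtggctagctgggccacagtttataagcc
In Oas1a ISRE matches begin 20 and 14 bases before the start and overlap each other. Only the one at 20 overlaps a STAT6 form that begins at 27. A GAS begins at 98 and another STAT6 form at 182. In Igtp the ISRE begins 34 bases and the GAS 45 bases before the start, the Irf1 GAS begins at 90, the Irf8 GAS matches at 171 and 153, and the Rsad2 ISRE, on the opposite strand, at 120. An ISRE match was in 14 of the 34 promoters (41.2%), against 3.44% of all 32851 promoters. A GAS match was in 9 (26.5%), against 8.30%, and the STAT6 form in 6 (17.6%), against 6.95%. A match describes the letters only and is not evidence of binding.

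Across the 35 genes, 3 rose in Dox and 0 fell (limma with Benjamini-Hochberg adjustment over 18193 genes, adjusted p under 0.05). They were the RNA-activated synthetase Oas1a, the antiviral chaperone Rtp4 and the GTPase Iigp1. Of all genes, 1.37% rose and 1.18% fell by the same rule. At an unadjusted p under 0.05, 11 of the 35 were higher in Dox and 2 lower, against 6.89% and 10.4% of all genes. In 15 of the 35 (42.9%) the 3 Dox arrays lay above both NoDox arrays, against 13.8% of all genes. In 3 (8.57%) they lay below both, against 21.8%, and in 17 the groups overlapped. The log2 fold change, the mean log2 ratio of Dox minus that of NoDox, was above 0 for 28 of the 35 (80.0%), against 42.5% of all genes. Its median was 0.33, and -0.08 over all genes. In RNA of a whole tissue, fewer cells of a type and less RNA per cell cannot be told apart.

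**Figure D1:**
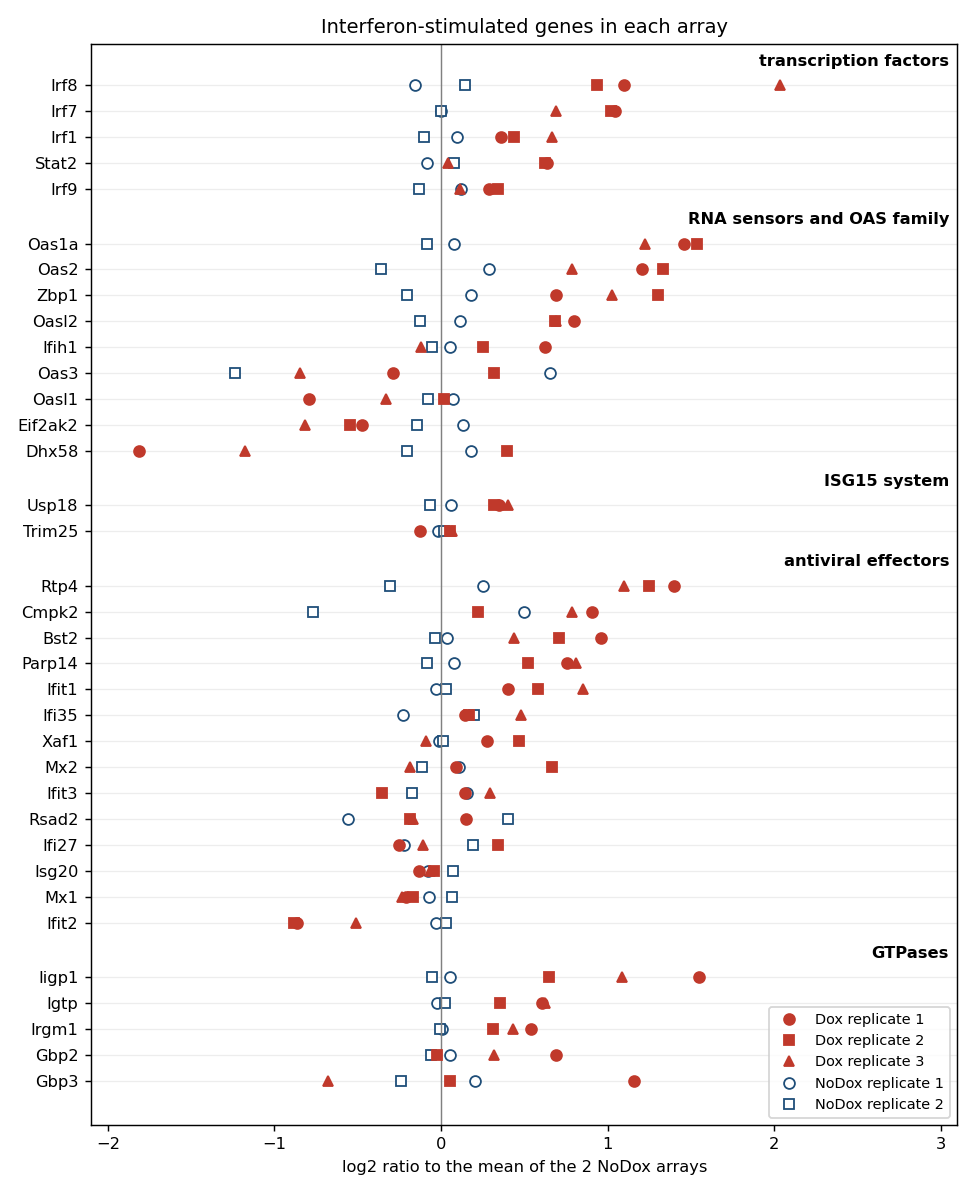
Log2 ratio of each of the 35 genes to the mean of the 2 NoDox arrays (x axis), 1 point per array, Dox filled and NoDox open, grouped by role. The Dox points of Oas1a, Rtp4 and Irf8 lie to the right of both NoDox points, those of Ifit2 and Eif2ak2 to the left, and those of Rsad2 and Oas3 overlap them.

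Among the 5 transcription factors none passed the threshold, although all 5 had fold changes above 0 (median 0.49), against 42.5% of all genes. At an unadjusted p under 0.05, 3 were higher and 0 lower, against 6.89% and 10.4% of all genes. Irf8, which directs the development of dendritic cells and monocytes and acts in B cells, had ratios of 2.14, 1.91 and 4.09 in Dox arrays 1 to 3, against 0.897 and 1.10 in NoDox arrays 1 and 2. All Dox arrays were higher than both NoDox arrays, with array 3 the highest. The log2 fold change was 1.36 ± 0.31 (SE; limma adjusted p = 0.0605), and a second probe set gave 1.65 ± 0.42. The summed signal of 6 B-cell markers was also highest in Dox array 3, at 130731 steps, against 15394 and 17196 in Dox arrays 1 and 2 and 11949 and 10971 in NoDox; its part in the Irf8 values was not tested.

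Irf7, the factor that amplifies type I interferon production, had ratios of 2.06, 2.03 and 1.62 in Dox, against 0.999 and 1.0 in NoDox. The groups did not overlap, and the log2 fold change was 0.92 ± 0.24 (limma adjusted p = 0.0881). Irf1, an early target of gamma interferon, had 1.29, 1.36 and 1.59 in Dox, against 1.07 and 0.933 in NoDox, again without overlap (0.49 ± 0.15, adjusted p = 0.131). The other two factors belong to the complex that binds the ISRE. Irf9 had ratios of 1.22, 1.27 and 1.08 in Dox, against 1.09 and 0.911 in NoDox, so that Dox array 3 lay within the NoDox range (0.25 ± 0.15). For Stat2 the ratios were 1.55, 1.54 and 1.03 in Dox, against 0.943 and 1.06 in NoDox (0.44 ± 0.27), while a dimmer probe set gave 2.29, 1.96 and 1.90 against 1.0 and 0.998 (1.03 ± 0.30). Only the dimmer probe set separated the groups.

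Among 9 RNA sensors and members of the OAS family, 1 passed the threshold (median log2 fold change 0.25). In 4 all Dox arrays lay above both NoDox arrays and in 1 below, against 13.8% and 21.8% of all genes. Oas1a makes the short oligoadenylates that activate RNase L. Its ratios were 2.75, 2.90 and 2.34 in Dox, against 1.06 and 0.945 in NoDox. The Dox arrays stood clear of NoDox by more than the range within either group, and Oas1a rose by 1.41 ± 0.16 on the log2 scale, or 2.65-fold (limma adjusted p = 0.00294). Without NoDox replicate 1 the adjusted p was 0.0639 and without NoDox replicate 2 it was 0.0862. Of its relatives, Oas2 had 2.31, 2.51 and 1.72 in Dox, against 1.22 and 0.779 in NoDox (1.14 ± 0.28, adjusted p = 0.0731), with no overlap. Oasl2 had 1.74, 1.61 and 1.62 in Dox, against 1.08 and 0.918 in NoDox (0.73 ± 0.33, adjusted p = 0.298), also with no overlap. Oas3 (0.02 ± 0.80) and Oasl1 (-0.37 ± 0.28), a relative that in mice restrains Irf7 translation, overlapped between the groups. The signal of Oas3 was 517 to 1211 steps in Dox and 369 to 1387 in NoDox.

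The sensors lay on both sides of NoDox. Zbp1, a sensor of left-handed nucleic acid, had 1.61, 2.47 and 2.03 in Dox, against 1.13 and 0.868 in NoDox (1.02 ± 0.54, adjusted p = 0.382). These signals were 1426 to 2275 steps in Dox, against 945 and 715 in NoDox. A still dimmer probe set gave 0.689, 1.70 and 4.66 in Dox, against 0.816 and 1.18 in NoDox (0.84 ± 0.92), with overlap. The helicase Ifih1 (MDA5) had 1.54, 1.19 and 0.920 in Dox, against 1.04 and 0.962 in NoDox (0.25 ± 0.21), with overlap. Eif2ak2, the kinase PKR that halts translation on sensing double-stranded RNA, had 0.720, 0.684 and 0.567 in Dox, against 1.10 and 0.904 in NoDox. Its Dox arrays all lay below NoDox, at -0.61 ± 0.22 (adjusted p = 0.207); 2 other probe sets gave -0.42 and -0.11. For Dhx58 (LGP2) the direction depended on the probe set. The brightest gave 0.285, 1.32 and 0.443 in Dox, against 1.13 and 0.867 in NoDox (-0.85 ± 0.71), and the other two gave 2.31 ± 0.92 and 3.33 ± 0.93, with NoDox signals of only 195 and 270 steps and 45 and 103 steps.

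In the ISG15 system, Isg15 was given no value. Usp18, the protease that removes ISG15 from proteins and dampens the type I receptor, had 1.27, 1.25 and 1.32 in Dox, against 1.04 and 0.957 in NoDox (0.36 ± 0.20, adjusted p = 0.402). The groups did not overlap. Trim25, a ligase that activates RNA sensing, had 0.916, 1.04 and 1.05 in Dox, against 0.986 and 1.01 in NoDox (0.00 on the log2 scale, SE 0.13). The level of this probe set is only a lower bound. Another gave 0.899, 0.915 and 0.935 in Dox, against 1.05 and 0.951 in NoDox (-0.12 ± 0.13), with all Dox arrays below. The dimmest gave -0.11 ± 0.22, with overlap.

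Among 14 measured antiviral effectors, 1 passed the threshold (median log2 fold change 0.21). In 4 all Dox arrays lay above both NoDox arrays and in 2 below, against 13.8% and 21.8% of all genes. Rtp4, a receptor-transport protein that restricts flaviviruses, had 2.64, 2.38 and 2.14 in Dox, against 1.19 and 0.808 in NoDox. Its groups did not overlap, and Rtp4 rose by 1.28 ± 0.24 on the log2 scale, or 2.42-fold (limma adjusted p = 0.0276). A dimmer probe set gave 5.34, 5.70 and 2.16 in Dox, against 0.732 and 1.27 in NoDox (2.07 ± 0.84), and the mean of both gave 1.67 with the call lost (adjusted p = 0.103). The call was lost without Dox replicate 1 (adjusted p = 0.0644), Dox replicate 3 (0.0756), NoDox replicate 1 (0.116) and NoDox replicate 2 (0.275). Parp14, a mono-ADP-ribosyltransferase, had 1.69, 1.44 and 1.76 in Dox, against 1.06 and 0.945 in NoDox (0.70 ± 0.18, adjusted p = 0.0805). The virion tether Bst2 had 1.95, 1.63 and 1.35 in Dox, against 1.02 and 0.976 in NoDox (0.70 ± 0.23, adjusted p = 0.154). Both were higher in every Dox array. Cmpk2, a mitochondrial nucleotide kinase whose gene adjoins Rsad2, had 1.88, 1.17 and 1.72 in Dox, against 1.41 and 0.586 in NoDox (0.77 ± 0.41), and a dimmer probe set gave -0.58 ± 0.58.

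The IFIT genes, whose proteins bind foreign or capped RNA, differed among themselves. Ifit1 had 1.32, 1.50 and 1.80 in Dox, against 0.978 and 1.02 in NoDox (0.61 ± 0.32, adjusted p = 0.374). Ifit2 had 0.550, 0.542 and 0.703 in Dox, against 0.978 and 1.02 in NoDox (-0.75 ± 0.22, adjusted p = 0.126). Ifit3 had 1.11, 0.783 and 1.23 in Dox, against 1.11 and 0.886 in NoDox (0.04 ± 0.26). The Dox arrays were all above NoDox for Ifit1, all below for Ifit2 and overlapping for Ifit3, and no difference between these genes was tested. Rsad2 (viperin, which makes a chain-terminating nucleotide) is commonly among the most inducible type I targets, and had 1.11, 0.880 and 0.889 in Dox, against 0.679 and 1.32 in NoDox (0.01 ± 0.30). Its NoDox arrays enclosed all 3 Dox arrays, and its other probe sets gave 0.17 ± 0.47 and -0.12 ± 0.70. Mx1, a GTPase that blocks influenza virus and is defective in many laboratory strains, had 0.863, 0.890 and 0.852 in Dox, against 0.951 and 1.05 in NoDox (-0.20 ± 0.40). In the probe sets used, the rest overlapped between the groups: Ifi35 (0.28 ± 0.17), Xaf1 (0.22 ± 0.18), Mx2 (0.19 ± 0.79), Ifi27 (0.01 ± 0.20) and the exonuclease Isg20 (-0.08 ± 0.17). The probe sets used for Ifi35 and Ifi27 have only a lower bound as their level, and another Ifi35 probe set gave 1.11, 1.29 and 1.23 in Dox, against 0.925 and 1.07 in NoDox (0.28 ± 0.16), without overlap.

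The 5 GTPases, whose products act on vacuoles that hold pathogens, all had fold changes above 0 (median 0.43), against 42.5% of all genes. In 3 all Dox arrays lay above both NoDox arrays, against 13.8% of all genes. Iigp1 had 2.93, 1.57 and 2.12 in Dox, against 1.04 and 0.964 in NoDox. All Dox arrays were higher, array 1 most, and Iigp1 rose by 1.09 ± 0.23 on the log2 scale, or 2.14-fold (limma adjusted p = 0.0448), with 0.97 ± 0.24 from its second probe set. The adjusted p was 0.0511 without Dox replicate 1, 0.149 without Dox replicate 3, 0.269 without NoDox replicate 1 and 0.312 without NoDox replicate 2. Igtp (Irgm3) had 1.52, 1.28 and 1.54 in Dox, against 0.983 and 1.02 in NoDox (0.53 ± 0.15, adjusted p = 0.108). Irgm1 had 1.45, 1.24 and 1.35 in Dox, against 1.0 and 0.998 in NoDox (0.43 ± 0.16, adjusted p = 0.204). Both are regulators of the other immunity-related GTPases, and neither overlapped. The guanylate-binding proteins overlapped in the probe sets used. Gbp2 had 1.61, 0.984 and 1.25 in Dox, against 1.04 and 0.960 in NoDox (0.33 ± 0.20), while its second probe set gave 1.70, 1.15 and 1.77 in Dox, against 1.0 and 0.995 in NoDox (0.60 ± 0.20), without overlap. Gbp3 had 2.23, 1.04 and 0.626 in Dox, against 1.15 and 0.847 in NoDox (0.20 ± 0.44). Dox array 1 was the highest for 4 of these 5 genes.

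**Figure D2:**
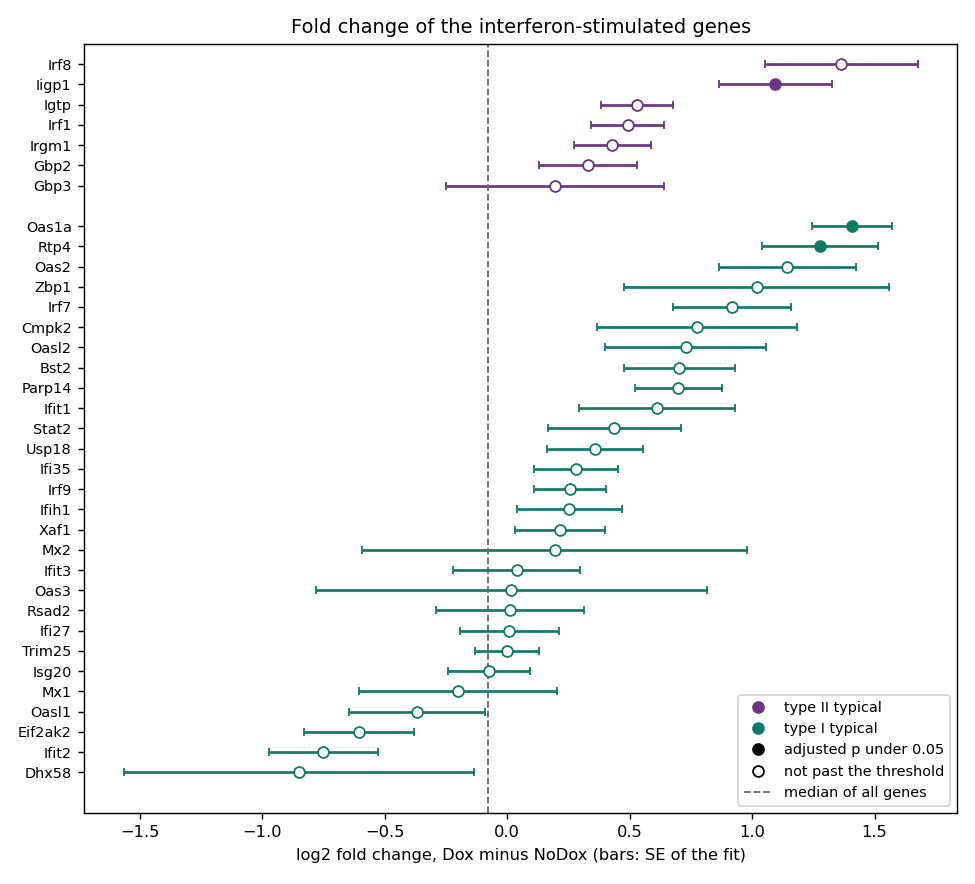
Log2 fold change, Dox minus NoDox (x axis), of the 7 type II typical genes (upper block) and the 28 type I typical genes (lower block), with bars for the SE of the fit. Oas1a, Rtp4 and Iigp1 (filled) passed the threshold, and the dashed line is the median of all genes, -0.08.

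Split by interferon type, all 7 type II typical genes had fold changes above 0, with a median of 0.49, and in 5 the Dox arrays lay above both NoDox arrays. Of the 28 type I typical genes 21 were above 0, with a median of 0.25. In 10 the Dox arrays lay above both NoDox arrays and in 3 below. Over all genes, 42.5% were above 0, 13.8% had the Dox arrays above both NoDox arrays and 21.8% below. By array, the median log2 ratio of the type II typical genes was 0.69, 0.35 and 0.63 in Dox, against 0.05 and -0.05 in NoDox. That of the type I typical genes was 0.28, 0.34 and 0.09 in Dox, against 0.07 and -0.07 in NoDox, so Dox array 3 was close to NoDox array 1. The difference between the types was not tested.

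**Figure D3:**
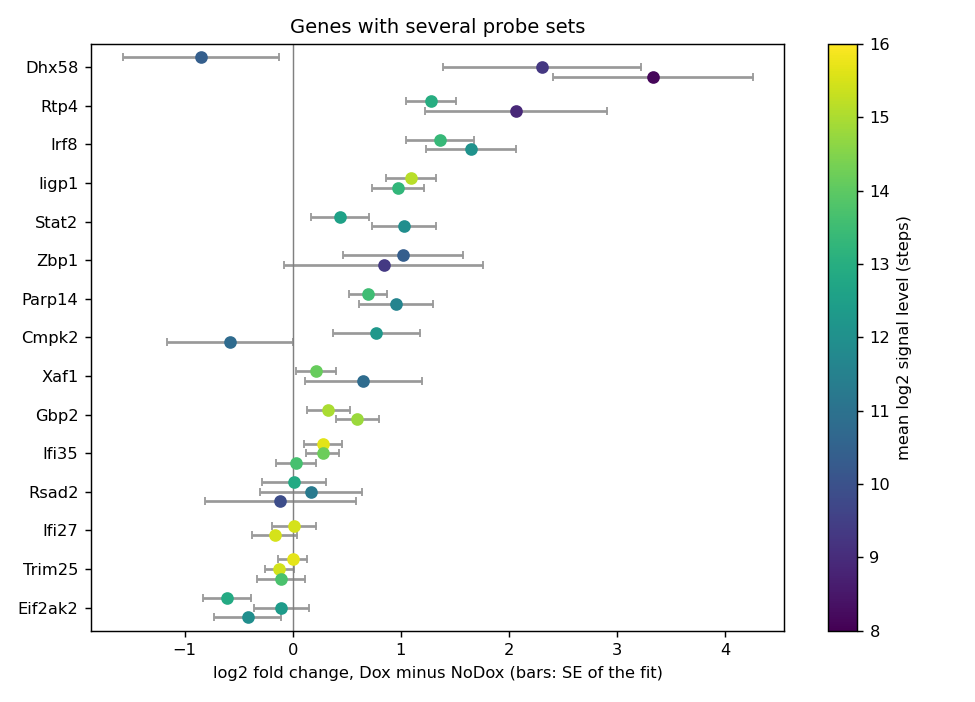
Log2 fold change, Dox minus NoDox (x axis), of every probe set of the 15 genes with several, coloured by mean log2 signal level in steps (a lower bound for both of Ifi27 and the brightest of Ifi35 and Trim25), with bars for the SE. In 4 genes (Dhx58, Cmpk2, Rsad2 and Ifi27) the probe sets differ in sign.

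The 35 genes had 55 probe sets, and 15 genes had several. Fitted over 34945 probe sets, those of Oas1a and the brighter one of Rtp4 were higher at an adjusted p under 0.05 (limma adjusted p = 0.00575 and 0.0365) and 0 were lower, against 0.77% and 0.753% of all probe sets. For Irf8, Iigp1, Parp14 and Rtp4, each with 2 probe sets, both put all Dox arrays above NoDox. The other genes with 2 probe sets did not show this. Those of Stat2, Gbp2 and Zbp1 differed in it, and both overlapped for Xaf1, Cmpk2 and Ifi27.

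Upstream of these genes, 0 of 9 measured interferon genes passed the threshold (limma), nor did any at an unadjusted p under 0.05. Ifng had ratios of 0.223, 2.04 and 0.191 in Dox, against 1.80 and 0.199 in NoDox (-0.43 ± 1.36), and Ifnb1 0.521, 1.0 and 0.907 in Dox, against 0.870 and 1.13 in NoDox (-0.35 ± 0.54). Both overlapped widely between the groups. Signals of Ifng were 106 to 1183 steps in Dox, against 945 and 103 in NoDox. For Ifnb1 they were 959 to 1921 steps in Dox, against 1511 and 1939 in NoDox. The median level of all genes was 8528 steps, and at such dim signals the lack of a call does not show that a gene was unchanged. Of 6 receptor genes 0 passed, with 0 higher and 1 lower at an unadjusted p under 0.05: Ifnar1 stood at 0.24 ± 0.16, Ifnar2 at 0.20 ± 0.20, Ifngr1 at 0.24 ± 0.19 and Ifngr2 at -0.46 ± 0.20. Of 10 measured JAK-STAT genes 1 rose, the feedback inhibitor Socs3 (1.82, 1.73 and 2.00 in Dox, against 1.0 and 0.998 in NoDox; 0.89 ± 0.13, adjusted p = 0.0110), and the interferon-induced inhibitor Socs1 overlapped (0.60 ± 0.53). Socs3 lost its call without Dox replicate 3 (adjusted p = 0.0608), NoDox replicate 1 (0.166) and NoDox replicate 2 (0.162). Of 17 genes that sense nucleic acid upstream of interferon 0 passed. At an unadjusted p under 0.05, 5 were higher and 1 lower, against 6.89% and 10.4% of all genes. The adaptor Sting1 had 1.95, 1.62 and 2.15 in Dox, against 0.880 and 1.12 in NoDox (0.93 ± 0.23, adjusted p = 0.0712). Its upstream DNA sensor Cgas had 0.629, 0.563 and 0.588 in Dox, against 1.08 and 0.916 in NoDox (-0.75 ± 0.19, adjusted p = 0.0829).

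Over all genes, 1.37% rose, 1.18% fell and 13.8% had Dox above NoDox in every array. Among other interferon targets, 2 of 41 measured type I targets rose and 0 fell (median 0.34, 19 with Dox above NoDox in every array). They were Samhd1, which depletes the nucleotides viruses need (2.44, 1.58 and 2.44 in Dox, against 1.05 and 0.948 in NoDox; 1.08 ± 0.20, limma adjusted p = 0.0279), and the secreted glycoprotein Lgals3bp (0.88 ± 0.16, adjusted p = 0.0276). Of 35 other type II targets 9 rose and 0 fell (median 0.75, 27 with Dox above NoDox in every array). Of these, 7 serve antigen presentation: the MHC class II genes H2-Ab1 (1.60 ± 0.16), H2-Aa (1.47 ± 0.20) and Cd74 (1.58 ± 0.20), the class I gene H2-D1 (0.97 ± 0.14), the peptide transporter Tap1 (1.37 ± 0.22) and the immunoproteasome subunits Psmb8 (1.23 ± 0.16) and Psmb9 (1.23 ± 0.17). The others were Ifi47, a GTPase of the Irgm1 family (2.13, 1.99 and 2.77 in Dox, against 0.880 and 1.12 in NoDox; 1.19 ± 0.20, adjusted p = 0.0174), and the adhesion gene Icam1 (1.02 ± 0.21, adjusted p = 0.0413). The gamma-interferon chemokines did not pass: Cxcl10 had 1.76, 1.99 and 2.57 in Dox, against 0.924 and 1.08 in NoDox (1.06 ± 0.44, adjusted p = 0.262), and Cxcl9 overlapped (0.38 ± 0.66). The count of type II targets that rose was 8, 12 and 5 without Dox replicates 1, 2 and 3, and 1 and 2 without NoDox replicates 1 and 2. That of type I targets was 1, 6 and 0 without Dox replicates 1, 2 and 3, and 0 without either NoDox replicate.

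Markers of other cells moved in the same arrays. Of 9 genes expressed by all leukocytes 4 rose (Laptm5 by 1.57 ± 0.25, Cd53 by 1.44 ± 0.26, Tyrobp by 1.42 ± 0.18 and Rac2 by 1.33 ± 0.26 on the log2 scale). All 9 had Dox above NoDox in every array, against 13.8% of all genes. Their summed signal was 321817, 248225 and 533158 steps in Dox, against 132800 and 128949 in NoDox. Of 12 macrophage and monocyte markers 3 rose (Cd68 by 1.54 ± 0.15, Adgre1 by 0.97 ± 0.17 and Csf1r by 0.80 ± 0.14), with 231090 to 271299 steps over 9 of them in Dox, against 153359 and 154695 in NoDox. Of 9 markers of conventional dendritic cells 3 rose (Ccr7 by 4.73 ± 0.88, Cd207 by 2.53 ± 0.22 and Itgax by 2.03 ± 0.36). The NoDox signals of Ccr7 were only 60 and 85 steps, and the list median was 0.43. Named after their values were seen, Flt3 (0.43 ± 0.62), Batf3 (0.32 ± 0.35), Zbtb46 (0.09 ± 0.28) and Xcr1 (-0.18 ± 0.47) overlapped between the groups. Cd209a (0.61 ± 0.25) and Naaa (0.23 ± 0.14) had Dox above NoDox in every array. The summed signal of the list was 88247 to 99806 steps in Dox, against 56651 and 57740 in NoDox. Without NoDox replicate 1 the markers that rose were 0 of the leukocyte, 2 of the macrophage and 1 of the dendritic list, and without NoDox replicate 2 they were 1 of each. Without Dox replicate 2 the leukocyte count was 8, and without Dox replicate 1 or 3 the dendritic count was 2. Antigen-presenting cells among the leukocytes express MHC class II genes and Irf8.

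Markers of the cells best known for making interferon showed no call. Of 9 markers of plasmacytoid dendritic cells 0 passed (limma). At an unadjusted p under 0.05, 0 were higher and 2 lower, against 6.89% and 10.4% of all genes. The 3 of smallest p were Cox6a2 (-0.53 ± 0.19), Tcf4 (-0.54 ± 0.22) and Klk1 (0.42 ± 0.19). Siglech stood at 0.80 ± 0.51 and Spib, which B cells also express, at 1.29 ± 0.77 (both named after their values were seen). Cox6a2 and Tcf4 had a lower bound of at least 29563 steps in every array, against signals of 1309 to 4643 steps for Siglech. Which cells gave the Cox6a2 and Tcf4 signals was not tested. Over the 6 with a recovered level, which leave out Cox6a2, Tcf4 and Ly6d, the sum was 30656, 26796 and 50781 steps in Dox, against 26260 and 21562 in NoDox. Of 11 markers of T and NK cells 0 passed (2 higher and 0 lower at an unadjusted p under 0.05), with 43028 to 49424 steps in Dox, against 44463 and 38132 in NoDox. Their smallest p belonged to Nkg7 (1.34 ± 0.38, adjusted p = 0.112), Cd3d (2.01 ± 0.81) and Cd8a (-0.53 ± 0.28). Of 6 B-cell markers 0 passed (2 higher and 0 lower at an unadjusted p under 0.05), led by Pax5, Cd79b and Cd22, and their median log2 ratio was 3.50 in Dox array 3, against 0.32 and 0.41 in the other two Dox arrays. Of 9 lung markers 6 rose, led by Sftpc, Sftpa1 and Sftpd (180517 to 477916 steps over 7 of them in Dox, against 60741 and 53933 in NoDox), and 0 rose without NoDox replicate 1 or NoDox replicate 2. Of 11 skeletal muscle markers 4 fell, led by Myl2, Myh7 and Tnnc1, and the median log2 fold change of the list was -0.24. The steps cover only the 2 with a recovered level, Myl2 and Myh7 (3431 to 4508 in Dox, against 164107 and 85336 in NoDox). Acta1 (-0.08 ± 0.15), Ckm (-0.15 ± 0.14) and Myh1 (-0.11 ± 0.14), named after their values were seen, overlapped between the groups. The labelled tissue's own markers, 9 of esophageal squamous epithelium, have no recovered level, and their median log2 ratio was -0.02, 0.10 and -0.21 in Dox, against -0.07 and 0.07 in NoDox. Of these 0 passed (1 higher and 2 lower at an unadjusted p under 0.05), led by Krt14, Trp63 and Krt15. No marker was listed at 0, and the part of these cells in the values of the interferon-stimulated genes was not tested.

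**Figure D4:**
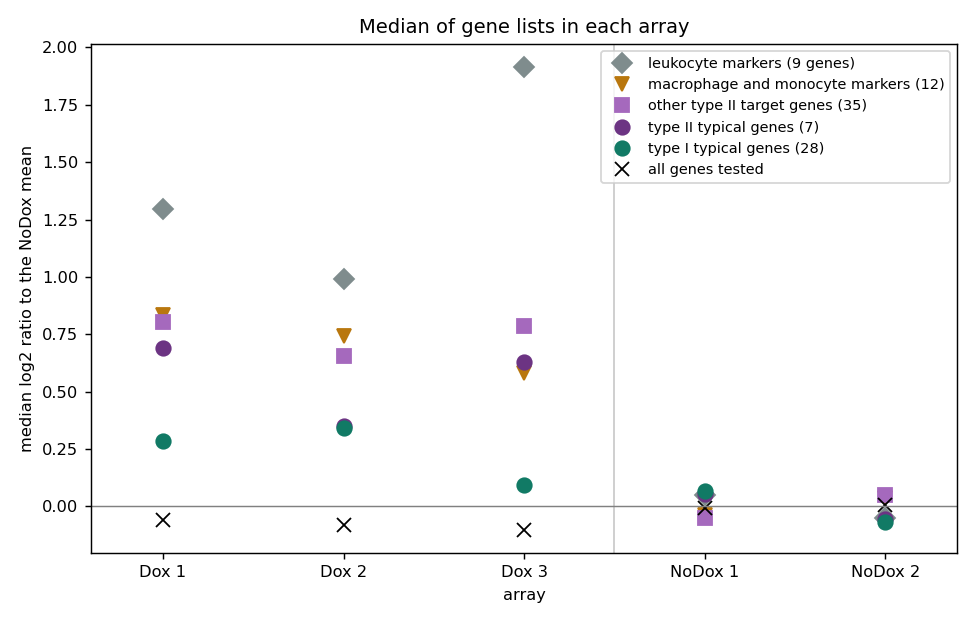
Median log2 ratio to the NoDox mean (y axis) of 6 gene groups in each array (x axis). Leukocyte markers are highest in Dox array 3 (1.91). The type I typical genes (0.09), the macrophage and monocyte markers (0.58) and all genes (-0.10) are lowest there among the Dox arrays.

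The Il13 probe set had low signals, 125 to 375 steps in Dox against 444 and 326 in NoDox, and was not past the threshold (-0.81 ± 0.91, adjusted p = 0.708), while the IL-13 receptor Il13ra2, a known STAT6 target, rose by 2.40 ± 0.37 (limma adjusted p = 0.0128). The number of arrays limits the precision of all values, and permuting single values exactly over 3 and 2 arrays gives no p under 0.1.

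**Figure D5:**
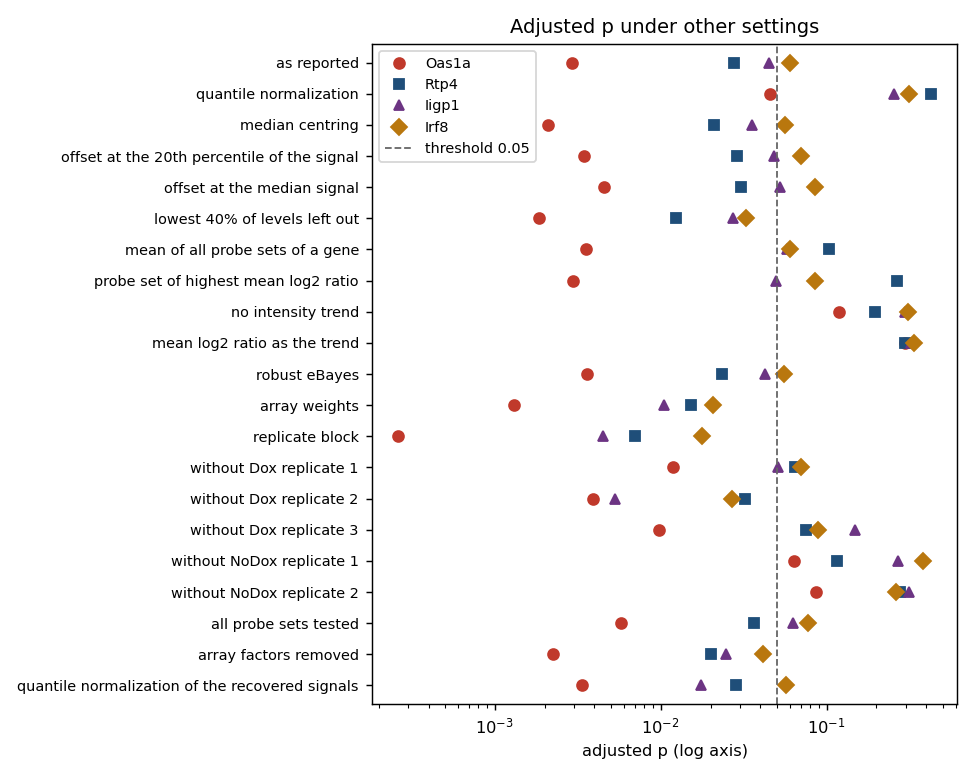
Adjusted p (x axis, log scale) of Oas1a, Rtp4, Iigp1 and Irf8 as reported (top) and under each other setting. Points left of the dashed line pass 0.05: of 20 other settings, Oas1a passes in 16, Rtp4 in 11, Iigp1 in 10 and Irf8 in 5.

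The 3 calls depended on the variance model and on single arrays. With no intensity trend in limma's variance the adjusted p was 0.119 for Oas1a, 0.196 for Rtp4 and 0.299 for Iigp1. The number of the 35 genes higher in Dox was 1 without Dox replicate 1, 6 without Dox replicate 2, 1 without Dox replicate 3 and 0 without NoDox replicate 1 or NoDox replicate 2.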

How the data were processed

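Total RNA was extracted with Trizol and labelled with biotin, per the labels' protocols. Signals were made with MAS 5.0 and normalized in GeneSpring 7.3.1, per the labels' descriptions. The deposited values are a linear ratio made by the authors, each a signal over the mean of the 2 NoDox arrays (NoDox values sum to 2, within 0.0001, in 45099 of 45101 probe sets), although the descriptions name pair-wise normalization.

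Signal levels were recovered for 40712 probe sets (90.3%) as whole steps, up to 50000, that give the 5 ratios within a relative tolerance of 3e-07. Ratios shuffled between probe sets gave a level in 0.725%. A level may be too small by a whole factor shared by the 5 arrays, and others have a lower bound. Detection calls were not used here, so a dim signal has no stated limit.

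A single gene symbol was annotated to 34945 probe sets, several to 932 and none to 9160, besides 64 controls. The brightest stood for each of 18193 genes. Log2 ratios, with no offset or filter, went into limma 3.58.1 under R 4.3.3 (lmFit, eBayes with a trend on level, two-sided, Benjamini-Hochberg over genes, 3 residual and 6.02 prior degrees of freedom), after a check on simulated data. Python 3.11.15, numpy 2.4.6, pandas 2.3.3, numba 0.67.0 and matplotlib 3.10.9 made tables and plots. All 37 genes are named by rule, with calls in each pathway list and the 3 markers of smallest p per list. Members and lists were chosen with earlier results of these data known.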

Additional observations from a re-analysis of the deposited data

How the results depend on the processing

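Of 728 values of single genes over 21 other settings, 653 kept their direction and their side of the threshold, 23 lost and 18 gained a call, and 34, of 9 genes that overlap between the groups, changed sign. All 23 losses were of Oas1a, Rtp4 and Iigp1, because the other 32 genes had no call to lose. Of the 35 genes, 3 were higher in Dox as reported. The count was 1 with quantile normalization of the ratios or the mean of all probe sets. It was 6 with array weights or with array factors removed, 7 at an adjusted p under 0.1 and 0 to 6 without single arrays. Without the lowest 40% of levels it was 6 of only 28 of these genes, with adjustment over 10916 genes. With no intensity trend, or the mean log2 ratio as the trend, 0 were higher. In these settings 16 and 17 of the 35 were past an unadjusted p under 0.05 in either direction. Of all 18193 genes, 2420 and 2367 were. No setting counted any lower. Deviations from the group mean hardly correlated between arrays of the same replicate number (0.031 and 0.052 over 2 pairs). The deviations of the 2 NoDox arrays are exact opposites, so these correlations are not independent and cannot settle whether the arrays were paired. With a replicate block 5 genes were higher, but Dox array 3 then has a block of its own and does not enter the fold change.

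The median log2 fold change of the 35 genes, 0.33 as reported, was 0.41 with median centring, 0.23 with the larger offset, 0.43 with the mean of probe sets, 0.49 with the probe set of highest mean ratio, 0.40 with the replicate block, 0.44 with array factors removed, 0.40 with quantile normalization of recovered signals and 0.30 to 0.42 without single arrays. The last of the scalings and the removal of array factors were chosen after seeing the data. The median of all genes, -0.08, became 0.03 with array factors removed and 0.06 with the probe set of highest mean ratio. The 249 higher and 214 lower genes became 58 and 12 with quantile normalization of the ratios, 293 and 146 with median centring, 366 and 141 with factors removed and 331 and 124 with quantile normalization of recovered signals.

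Signs turned as follows on the log2 scale. Isg20 gave 0.00017 with quantile normalization, 0.0063 with median centring and 0.034 with factors removed. Trim25 gave 0.055, 0.081 and 0.11 under the same 3 settings, 0.056 with quantile normalization of recovered signals and -0.035 to 0.061 without single arrays. Oas3 gave -0.10 with the smaller offset, -0.12 with the larger, -0.12 with array weights, -0.0027 with quantile normalization of recovered signals and -0.93 to 0.96 without single arrays. Rsad2 gave -0.0066 and -0.039 with the offsets and -0.47 to 0.49 without single arrays. With the larger offset Ifit3 gave -0.0023 and Mx2 -0.069, and without single arrays -0.13 to 0.23 and -0.043 to 0.38. Ifit3 gave -0.095 with the replicate block. Dhx58 gave 1.60 with the mean of probe sets and 3.33 with that of highest mean ratio. Ifi27 gave -0.080 with the mean of probe sets, -0.051 with array weights and -0.20 to 0.21 without single arrays, and Gbp3 -0.29 to 0.62. The causes were not tested.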
